A study of Homo sapiens with 2 samples.

Results

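The NF-kappaB genes described here are the 5 transcription factor subunits NFKB1, NFKB2, REL, RELA and RELB, and 5 regulators known as feedback genes, which NF-kappaB induces and which adjust its activity: NFKBIA, NFKBIE, NFKBIZ, TNFAIP3 and BIRC3. They were found by gene name among the gene probes of the array, which gave 10 genes with 11 probes on 47 spots, of 27267 genes with 34127 probes on 43118 spots in all. On both arrays and for either population, every one of the 10 gave a signal well above background, and 13718 genes in all did so for at least 1 population. RNA came from RMG1, an established ovarian cancer cell line, kept in DMEM/F12 medium with serum. The cells were sorted by the ALDEFLUOR assay, in which a fluorescent product is retained in cells with high aldehyde dehydrogenase (ALDH) activity, with the ALDH inhibitor DEAB as the negative control. The ALDH+ fraction, taken in the study as cancer stem-like cells, was compared with the ALDH- fraction, and both came from the same line with no treatment stated. Each fraction gave 1 RNA extract, and both extracts were hybridized together on 2 arrays of 1 slide: ALDH+ RNA carried Cy5 on the first and Cy3 on the second. The 2 arrays are therefore 1 replicate, no p-value can be given, and an SD between them (n = 2 arrays) is technical error and says nothing of the spread between sorts.

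NF-kappaB subunits bind DNA as dimers and are held in the cytoplasm by IkappaB proteins until a kinase complex marks these for destruction. RELA and REL with the p50 product of NFKB1 form the canonical arm, and RELB with the p52 product of NFKB2 forms the non-canonical arm. The freed dimers switch on inflammatory and survival genes, and among them the genes of their own inhibitors, which closes a feedback loop. In epithelial ovarian cancer this pathway is studied for its links to cytokine secretion and drug resistance.

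The promoters were searched for stretches that match the NF-kappaB consensus by sequence alone. Windows are shown for the genes whose promoters hold the narrower of the motifs described next. The RefSeq promoter table (GRCh38.p14, 250 bases before each start) held 8 of the 10 genes with 13 promoters. RELB and NFKBIE had no entry, so their promoters were not searched. It was searched on both strands for GGG and CC separated by any 5 bases, and for the narrower NF-kappaB consensus, in which the bases between are a purine, any base, A or T, and a pair of pyrimidines. The narrower motif lay in 9 promoters of 7 of these genes, against 5.21% of the 35116 promoters and 6.28% of the 27305 genes in the table. The wider one lay in 12 of the 13 promoters and in all 8 genes, but also in 54.4% of all promoters and 57.8% of all genes. RELA held only the wider one. Only the wider motif was in the analysis plan, and the narrower one was added to it. Each window below has 30 bases, and capitals mark the match to the narrower motif, with overlapping matches joined. Further matches of NFKB2 and NFKBIZ to this motif, before the same or other starts, are not printed.
NFKBIA (chr14:35404811-35404840, minus strand, 81 to 72 bases before the start): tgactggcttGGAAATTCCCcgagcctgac
TNFAIP3 (chr6:137867188-137867217, plus strand, 2 matches within 67 to 46 bases): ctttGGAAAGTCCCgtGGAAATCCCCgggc
NFKB1 (chr4:102501300-102501329, plus strand, 49 to 40 bases): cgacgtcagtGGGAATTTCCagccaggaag
REL (chr2:60881518-60881547, plus strand, 2 overlapping matches within 47 to 37 bases): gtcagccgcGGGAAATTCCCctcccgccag
NFKB2 (chr10:102394462-102394491, plus strand, 2 overlapping matches, before the second of its starts): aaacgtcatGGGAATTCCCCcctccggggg
BIRC3 (chr11:102317275-102317304, plus strand, 199 to 190 bases): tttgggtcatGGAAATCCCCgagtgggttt
BIRC3 (chr11:102317339-102317368, plus strand, 135 to 126 bases): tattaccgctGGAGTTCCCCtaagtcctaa
NFKBIZ (chr3:101827757-101827786, plus strand, 223 to 214 bases): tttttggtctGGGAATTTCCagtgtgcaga
The same 10 letters, GGGAATTTCC or their reverse complement, stood in the windows of NFKBIA, NFKB1, REL and NFKBIZ, genes whose ratios below lie on either side of 0. A match describes these letters only, and no binding was measured here.

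Of the 10 genes, RELB, NFKBIA and NFKBIE were the highest in ALDH+ cells relative to ALDH- cells, NFKBIZ was the only one lower on both arrays, and the other subunits lay near equal levels. No gene reached a 2-fold difference in either direction. Values are log2 ratios of ALDH+ over ALDH- cells after background correction and dye normalization, so that 0 is an equal level and 1 is a 2-fold higher level in ALDH+ cells. In bulk RNA of this kind, fewer cells that express a gene and less of its RNA per cell cannot be told apart.

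**Figure D1:**
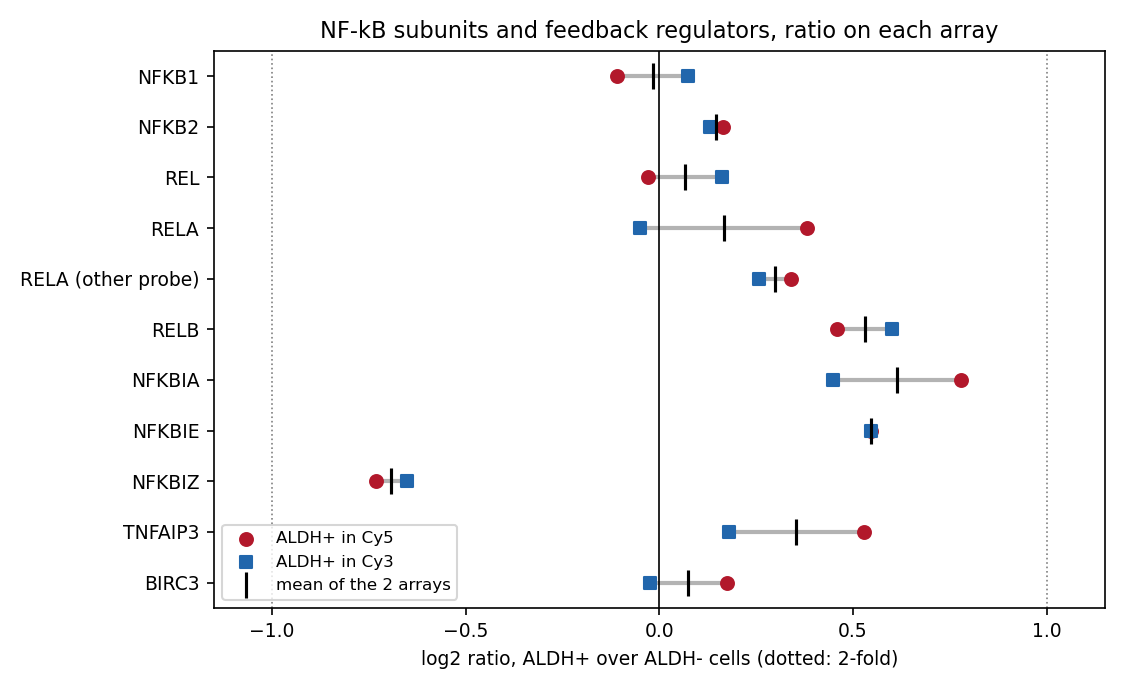
Log2 ratio of ALDH+ over ALDH- cells (x axis) for each of the 11 probes (rows) on the array with ALDH+ RNA in Cy5 (circles) and in Cy3 (squares), with the mean as a black tick, the gap between arrays as a grey bar and dotted lines at 2-fold. RELB, NFKBIA and NFKBIE lie right of 0.4 on both arrays, NFKBIZ lies left of -0.6 on both, and NFKB1, REL, BIRC3 and the first RELA probe cross 0.

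Among the subunits, RELB stood apart from the other 4. RELB, the partner of p52 in the non-canonical arm, had normalized log2 intensities of 11.65 in ALDH+ and 11.20 in ALDH- cells on the first array, and of 11.73 and 11.13 on the second (probe at hg19 chr19:45541385-45541444). Both ALDH+ values lay above both ALDH- values. The log2 ratio was 0.46 on the first array and 0.60 on the second, mean 0.53 ± 0.10 (SD, n = 2 arrays), or 1.44-fold. This placed RELB at rank 260 from the highest of the 13718 measured genes.

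NFKB2 encodes p100, the precursor of p52 and itself an inhibitor of RELB dimers. Its log2 intensities were 7.44 in ALDH+ and 7.28 in ALDH- cells on the first array, and 7.35 and 7.22 on the second. The ratio was above 0 on both arrays (0.16 and 0.13, mean 0.15 ± 0.024), or 1.11-fold, and 75.4% of the measured genes had a lower ratio. The 10 spots of the probe ranged from -0.16 to 0.34 on the first array, and the 8 spots kept on the second from 0.03 to 0.20. The probe was dim in Cy3, with raw signals of 197.6 for ALDH- RNA on the first array and 202.1 for ALDH+ RNA on the second. Negative control medians there were 135.2 and 127.2. Its mean ratio was 0.29 as computed by the scanner software. The 60 bases of the probe are placed over 177 bases of the genome (hg19 chr10:104161053-104161229).
NFKB2 probe: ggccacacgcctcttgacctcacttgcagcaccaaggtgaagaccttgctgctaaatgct

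RELA, the main activating subunit of the canonical arm, had 2 probes that differed in how well the arrays matched. The brighter one, with 10 spots (hg19 chr11:65421651-65421710, minus strand), gave log2 intensities of 9.15 in ALDH+ and 8.77 in ALDH- cells on the first array, and of 8.82 and 8.87 on the second. All 8 spots kept on the first array had a ratio above 0 (0.33 to 0.42), and 7 of 8 on the second had one below 0 (-0.10 to 0.07). The sign thus differed between the arrays, although spots of 1 array matched closely. With 1 array for each placing of the dyes, dye and array cannot be told apart. The mean was 0.17 ± 0.31 (SD, n = 2 arrays).

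The second RELA probe, with 1 spot (hg19 chr11:65421986-65422045, minus strand), had log2 intensities of 8.55 in ALDH+ and 8.21 in ALDH- cells on the first array, and of 8.45 and 8.19 on the second. Its ratio was above 0 on both arrays (0.34 and 0.26, mean 0.30 ± 0.058), or 1.23-fold. The mean ratios of both probes lay below that of RELB.
RELA second probe: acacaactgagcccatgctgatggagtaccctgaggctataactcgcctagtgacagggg

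NFKB1 and REL did not keep 1 sign over the arrays. NFKB1, the source of p50, had log2 intensities of 8.35 in ALDH+ and 8.45 in ALDH- cells on the first array, and of 8.29 and 8.21 on the second (hg19 chr4:103537856-103537915). Of its 10 spots, 8 were below 0 on the first array and 8 above 0 on the second, and the mean ratio was -0.02 ± 0.13 (SD, n = 2 arrays). REL, which encodes c-Rel, had 6.93 in ALDH+ and 6.96 in ALDH- cells on the first array, and 6.91 and 6.75 on the second (hg19 chr2:61149596-61149655). Its mean ratio was 0.07 ± 0.13 (SD, n = 2 arrays), and the REL probe was dim: its raw signal of 184.2 for ALDH- RNA in Cy3 compares with a median of 135.2 over the negative control spots of that channel.
REL probe: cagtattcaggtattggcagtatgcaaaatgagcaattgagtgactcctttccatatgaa

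**Figure D2:**
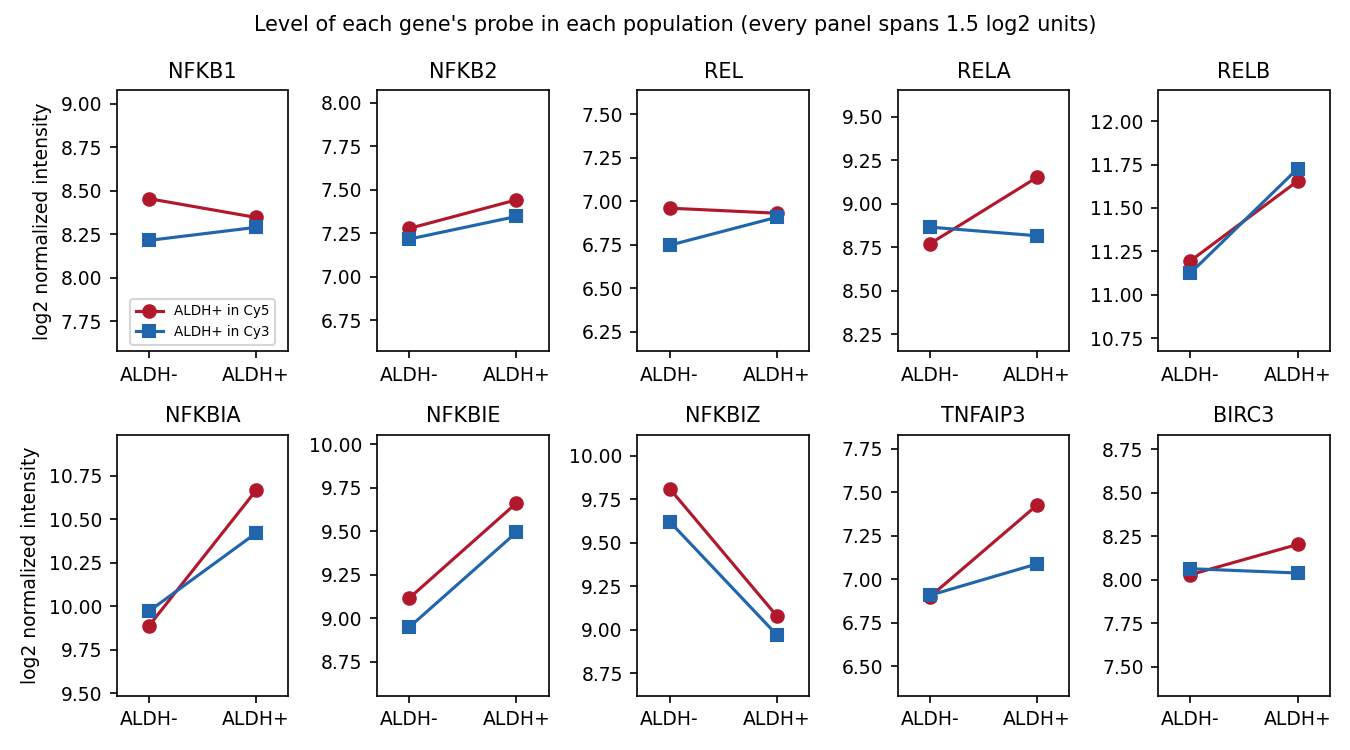
Normalized log2 intensity (y axis, each panel 1.5 log2 units tall) of the probe standing for each of the 10 genes in ALDH- and ALDH+ cells (x axis), with 1 line for each array. The lines of RELB, NFKBIA and NFKBIE climb on both arrays and those of NFKBIZ descend on both, while the lines of RELA, NFKB1, REL and BIRC3 slope in opposite directions; levels of different panels cannot be compared, since each is another probe.

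On the mean of the arrays, the 3 IkappaB family members showed the widest ratios of the 10 genes, in both directions, NFKBIE only narrowly ahead of RELB. On the second array alone, RELB (0.60) exceeded NFKBIA (0.45) and NFKBIE (0.55). NFKBIA encodes IkappaBalpha, the inhibitor that is resynthesized first when NF-kappaB is active. Its log2 intensities were 10.67 in ALDH+ and 9.89 in ALDH- cells on the first array, and 10.42 and 9.97 on the second (hg19 chr14:35870788-35870847, minus strand). The ratio was 0.78 on the first array and 0.45 on the second, mean 0.61 ± 0.23 (SD, n = 2 arrays), or 1.53-fold. All 10 spots were above 0 on each array, from 0.73 to 0.83 and from 0.32 to 0.52, so the gap between arrays exceeded the spread between spots. NFKBIA had rank 182 from the highest of all measured genes.

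NFKBIE encodes IkappaBepsilon, a later-acting inhibitor that holds RELA and c-Rel dimers. Its log2 intensities were 9.66 in ALDH+ and 9.11 in ALDH- cells on the first array, and 9.49 and 8.95 on the second (hg19 chr6:44226558-44226617, minus strand). The ratio was 0.55 on each array (SD 0.0009), or 1.46-fold, and had rank 244 from the highest. The probe has 1 spot, so a repeat within an array was not measured.

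NFKBIZ encodes IkappaBzeta, a nuclear IkappaB that acts as a co-activator of a subset of NF-kappaB targets, IL6 and LCN2 among them. Its log2 intensities were 9.08 in ALDH+ and 9.81 in ALDH- cells on the first array, and 8.97 and 9.62 on the second (hg19 chr3:101578904-101578963). Both ALDH+ values lay below both ALDH- values, opposite to NFKBIA and NFKBIE. The ratio was -0.73 and -0.65, mean -0.69 ± 0.057 (SD, n = 2 arrays), so the ALDH+ level was 61.9% of the ALDH- level. NFKBIZ had rank 400 from the lowest, and 2.91% of the measured genes had a lower ratio.

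TNFAIP3 and BIRC3 act through ubiquitin. TNFAIP3 encodes A20, which edits ubiquitin chains and shuts off signaling from the TNF receptor. Its log2 intensities were 7.43 in ALDH+ and 6.90 in ALDH- cells on the first array, and 7.09 and 6.91 on the second (hg19 chr6:138203679-138203738). The ratio was above 0 on both arrays, 0.53 and 0.18, mean 0.35 ± 0.25 (SD, n = 2 arrays), or 1.28-fold. The probe was dim, with raw Cy3 signals of 164.1 for ALDH- RNA on the first array and 184.9 for ALDH+ RNA on the second, against negative control medians of 135.2 and 127.2. Its mean ratio was 0.32 without background correction, 0.51 with a smaller normexp offset of 10, and 0.75 as computed by the scanner software.

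BIRC3 encodes cIAP2, a ubiquitin ligase of the TNF receptor complex. Its log2 intensities were 8.20 in ALDH+ and 8.03 in ALDH- cells on the first array, and 8.04 and 8.06 on the second (hg19 chr11:102208356-102208415). The ratio was 0.17 on the first array and -0.02 on the second, mean 0.07 ± 0.14 (SD, n = 2 arrays). BIRC3 thus had no direction that both arrays shared.

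As a group, 5 of the 10 genes were higher in ALDH+ cells on both arrays (NFKB2, RELB, NFKBIA, NFKBIE and TNFAIP3), 1 was lower on both (NFKBIZ), and 4 had opposite signs. Among all measured genes, 33.6% were higher and 36.2% were lower on both arrays. The median ratio of the 10 genes was 0.16, against -0.003 over all measured genes, of which the central 95% lay between -0.73 and 0.48. RELB, NFKBIA and NFKBIE lay above that range and NFKBIZ lay inside it, because the distribution reaches further below 0 than above.

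**Figure D3:**
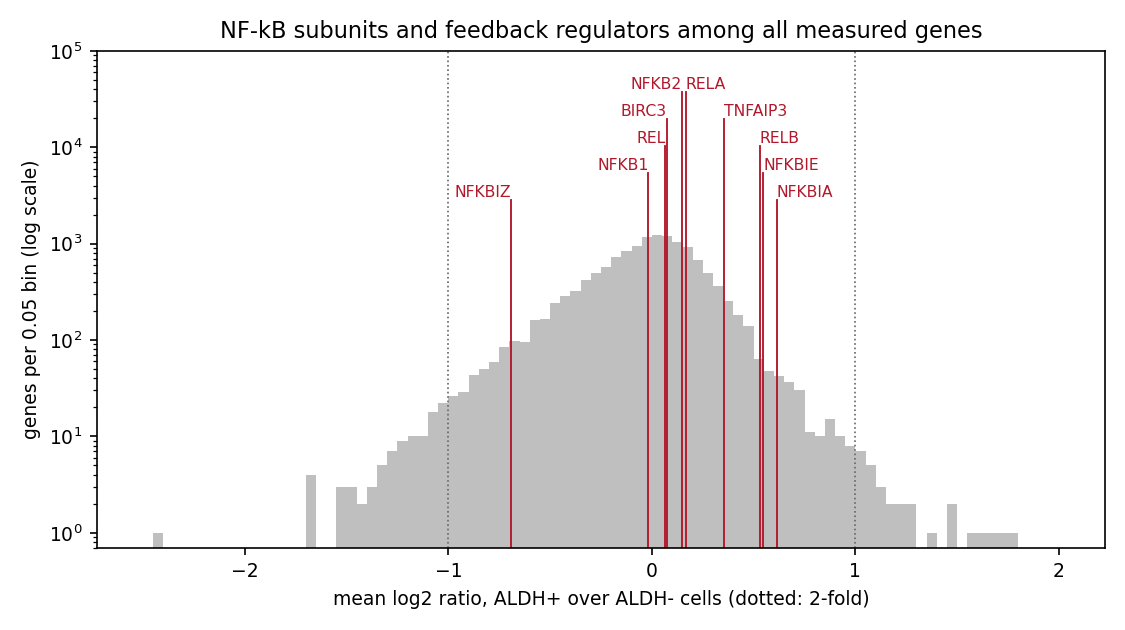
Number of measured genes (y axis, log scale) by mean log2 ratio of ALDH+ over ALDH- cells (x axis, bins of 0.05, dotted lines at 2-fold), with the 10 NF-kappaB genes as labelled lines whose heights have no meaning. NFKBIA, NFKBIE and RELB stand on the right slope, with TNFAIP3 between them and the centre, NFKBIZ on the longer left slope, and the others near the centre.

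Size can be read against the gap between the arrays. Over all measured genes the absolute difference between the 2 arrays had a median of 0.16 and a 95th percentile of 0.52, a yardstick chosen after the values were seen. RELB, NFKBIA and NFKBIE lay above 0 by more than 0.52, as did 2.01% of measured genes, and NFKBIZ lay below 0 by more than that, as did 6.19%. RELB and NFKBIE passed it narrowly. Past 1.5-fold, 1 gene was higher (NFKBIA, background 1.5%) and 1 was lower (NFKBIZ, background 4.61%). Past 2-fold the counts were 0 and 0, against 0.211% and 0.707% of measured genes.

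Across 13 other ways of processing, NFKB2, RELB, NFKBIA, NFKBIE and TNFAIP3 kept a mean ratio above 0 and NFKBIZ one below 0. Not all 13 could change a value. The authors' joined table repeats the scanner software's ratios, and leaving out an array repeats ratios given above. The filters on dim probes changed none of these genes, the mean over probes changed RELA alone, and keeping outlier spots changed NFKB2 and RELA alone. NFKBIZ ranged from -0.77 to -0.60, NFKBIE from 0.50 to 0.65, RELB from 0.46 to 0.71, and NFKBIA from 0.45 to 0.78. TNFAIP3 had the widest range, 0.18 to 0.75. NFKB1, REL, RELA and BIRC3 took both signs, the last 3 only when an array was left out. When each array was only centred on the median of all its gene spots, without loess, the arrays lay further apart: NFKBIA was 1.58 on the first and -0.12 on the second. RELB was 1.38 and 0.03, NFKBIE 1.25 and 0.02, NFKBIZ -0.02 and -1.18, and NFKB2 0.33 and -0.03. Part of these gaps was common to all measured genes, whose medians were 0.56 and -0.44 under this setting. Against those medians NFKBIA, RELB and NFKBIE lay above on both arrays and NFKBIZ below on both. NFKB2 lay below on the first and above on the second. How closely the arrays match for these genes thus rests on the loess step, whereas the sign of their means did not change without loess. A mean over exchanged dyes cancels a dye offset that both arrays share. The unchanged sign was therefore partly fixed in advance.

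**Figure D4:**
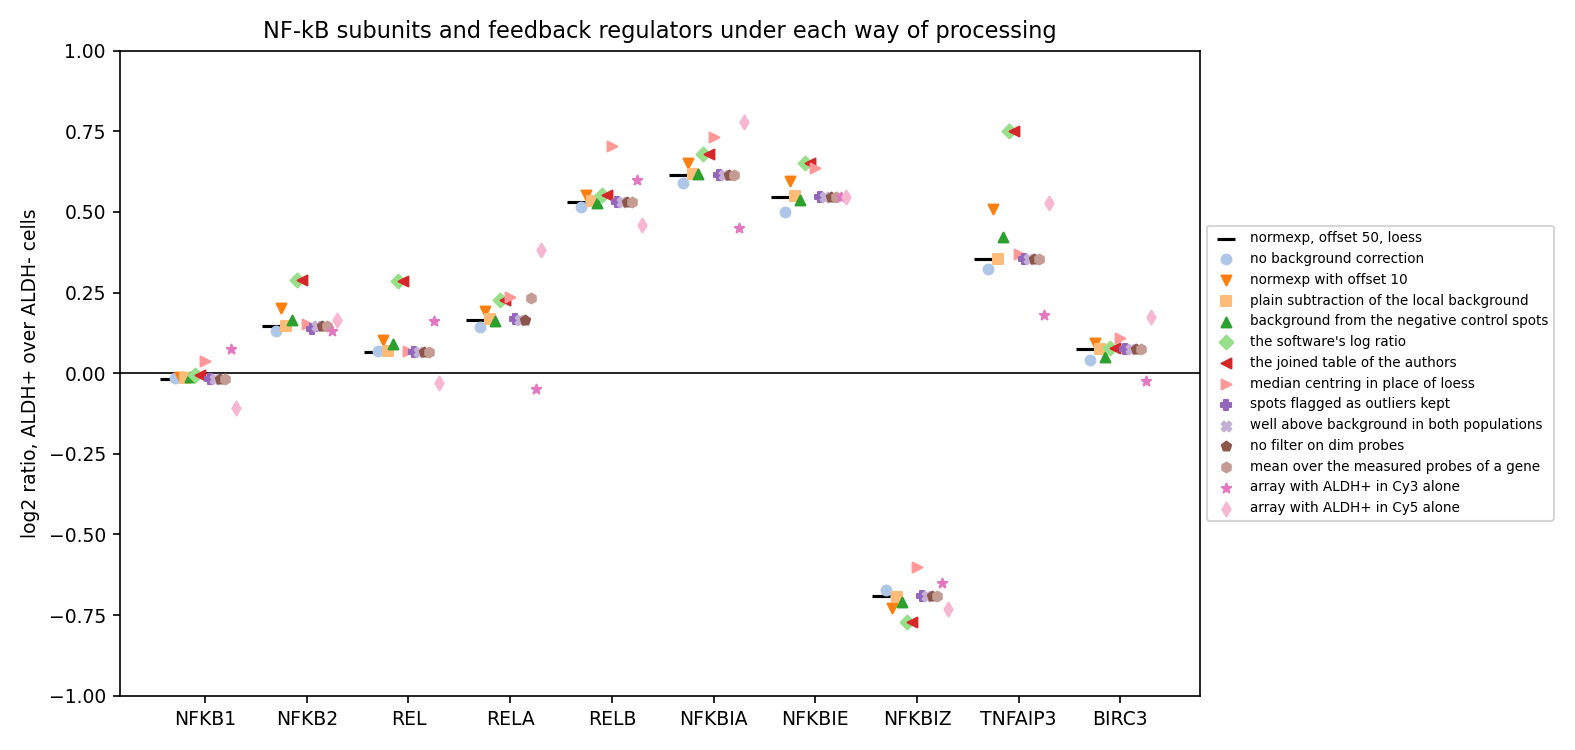
Log2 ratio of ALDH+ over ALDH- cells (y axis) for the 10 genes (x axis) as reported (black ticks) and under each of 13 alternatives (symbols, named in the legend). NFKBIZ stays below -0.5 and RELB, NFKBIA and NFKBIE above 0.4 throughout, while TNFAIP3 is spread from 0.18 to 0.75.

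The rest of the pathway was read from 7 lists ordered by role, with the same array background of 33.6% higher and 36.2% lower on both arrays. Upstream, the measured ligands were high in ALDH+ cells. TNF, the cytokine that activates the canonical arm, had ratios of 1.12 and 1.26 (mean 1.19, 2.28-fold), and LTB, a ligand of the non-canonical arm, had 1.61 and 1.66 (mean 1.64, 3.11-fold). These were the 2 of 10 listed ligands with a measured probe, and the other 8 were not well above background. Of 12 receptors, 7 were measured, 2 higher and 3 lower on both arrays, with a median of -0.045. Under median centring it was 0.061, below the 0.071 of all measured genes. CD40, a receptor of both arms, had 0.45 ± 0.022 (SD, n = 2 arrays). TNFRSF12A, the TWEAK receptor, had -0.58 and -0.06, with a mean of -0.32. Under median centring its mean was 0.036, also below the 0.071 of all measured genes. TNFRSF1B was not well above background in ALDH+ cells on either array, and no fold is given for it.

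The activating kinases and their scaffolds lay mostly lower in ALDH+ cells, by small amounts. Of 9 measured among 11 listed, 8 had a mean ratio below 0, 7 were lower on both arrays and none was higher on both, with a median of -0.20. TBK1, a kinase related to the IkappaB kinases, had a ratio of -0.47 ± 0.098 (SD, n = 2 arrays). CHUK, which encodes IKKalpha, had -0.36 ± 0.017, and IKBKB, which encodes IKKbeta, had -0.28 ± 0.066. The list's median stayed between -0.25 and -0.13 under the 12 alternatives that kept a filter on dim probes.

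Adaptors and ubiquitin ligases had no shared direction. Of 19 measured among 20 listed, 4 were higher and 8 lower on both arrays, with a median of -0.04. Under median centring it was 0.10, with 0.071 over all measured genes. The 3 largest ratios with 1 sign on both arrays were those of RBCK1 (HOIL-1, -0.47 ± 0.024), XIAP (-0.47 ± 0.014) and RIPK1 (-0.44 ± 0.28, SD, n = 2 arrays). RIPK1 was -0.64 on the first array and -0.24 on the second. Of 10 deubiquitinases and other brakes, 8 were measured, 4 higher and 3 lower on both arrays, with a median of 0.04. TNIP1, an A20 partner, had 0.31 ± 0.027, ZC3H12A, a nuclease that degrades cytokine mRNA, had 0.31 ± 0.27, and ITCH, a ligase that works with A20, had -0.18 ± 0.023 (SD, n = 2 arrays). Of 6 other inhibitors, 5 were measured, 2 higher and 1 lower on both arrays, with a median of 0.12. NKIRAS2, which binds IkappaB proteins, had 0.35 and COMMD1, which promotes removal of RELA from chromatin, had 0.23. BCL3, like NFKBIZ a nuclear IkappaB, had -0.32 and -0.50, with a mean of -0.41. Under median centring its mean was 0.10, close to the 0.071 of all measured genes, while that of NFKBIZ stayed below 0.

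Downstream, 17 of 29 listed NF-kappaB target genes outside the feedback loop were measured, of which 13 were higher and 4 lower on both arrays, with a median ratio of 0.29. The list's median was 0.27 on the first array alone, where that of the 10 subunits and feedback regulators was 0.28, and it was 0.13 with no filter on dim probes, which brought in all 29 targets. On the mean of the arrays 3 targets passed 2-fold, of which CXCL1 alone did so without background correction. CXCL1, a neutrophil chemokine, had 0.96 and 1.22 (mean 1.09), but another of its probes had a mean of 0.53. C3, a complement component, had 1.02 and 1.00 (mean 1.01), and 0.99 without background correction. CXCL8, which encodes interleukin 8, had 0.88 and 1.13 (mean 1.01), but its ALDH- signal was well above background on only 1 array. Its mean was 0.83 without background correction, 1.46 with the offset of 10 and 2.81 with the scanner software's ratio, and it was not measured when both populations had to pass. IL6 and LCN2, named above as genes that IkappaBzeta co-activates, had mean ratios of 0.73 and 0.66, opposite in sign to NFKBIZ. Both were chosen for mention after their values were seen.

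**Figure D5:**
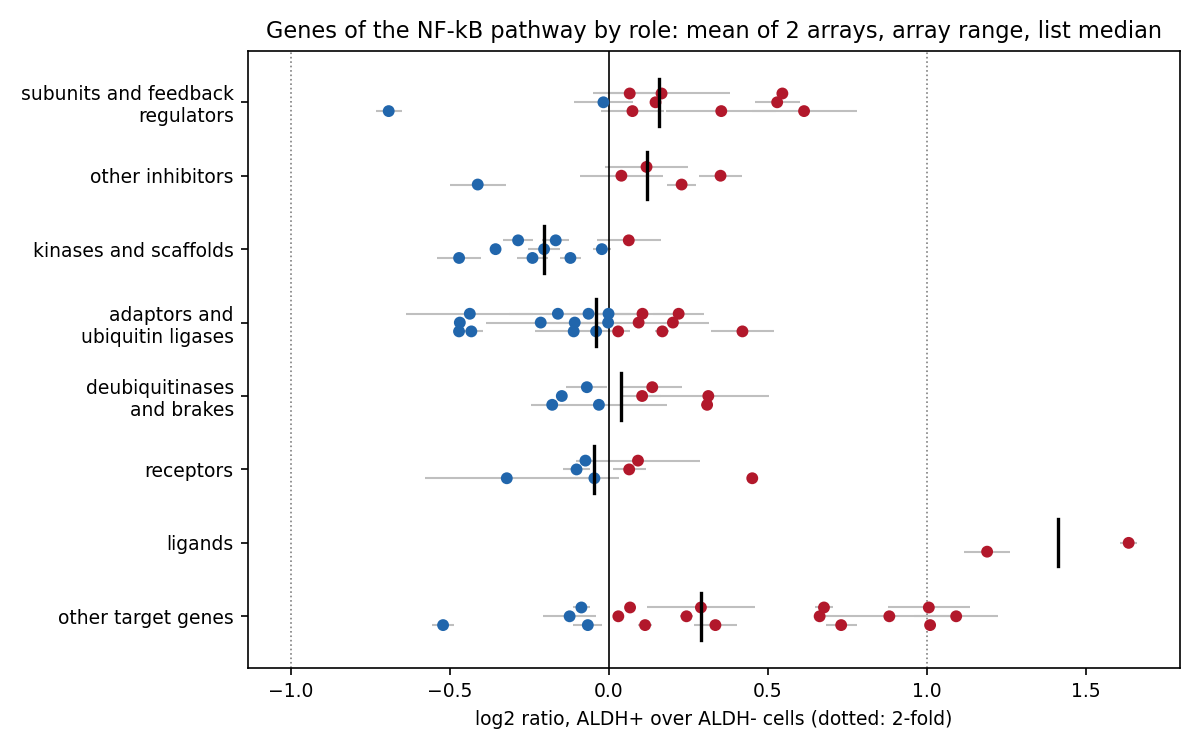
Mean log2 ratio of ALDH+ over ALDH- cells (x axis, dotted lines at 2-fold) of every measured gene in the lists (rows), red above 0 and blue below, with grey bars joining the values of the 2 arrays and black ticks at list medians. The list medians are 1.41 for the 2 measured ligands, 0.29 for other targets, 0.16 for the 10 subunits and feedback regulators and -0.20 for kinases; without a filter on dim probes those of the ligands and targets are 0.10 and 0.13.

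Other cells were looked for through their markers, since immune cells express many of these genes. Of 11 leukocyte markers 10 had a probe and 4 were measured: PTPRC (0.03), CD3D (-0.15), CD14 (0.45) and CSF1R (-0.19), with a median of -0.056. CD3E, CD2, MS4A1, ITGAM and NKG7 were among those not well above background in either population. All 8 epithelial and clear cell carcinoma markers were measured, with a median of -0.12, and PAX8 was the lowest (-0.74). Under median centring their median was 0.12, with 0.071 over all measured genes. Gene spots well above background made up 50.3% to 60.3% for ALDH+ RNA and 50.6% to 64.9% for ALDH- RNA, the higher share being that of Cy5 in each case. The part of this dye difference in the ratios of dim genes such as TNFAIP3 and REL was not tested.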

How the data were processed

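The extracts of both RMG1 fractions were hybridized to 2 arrays with exchanged dyes, which count as 1 replicate. The sample labels and the study's results name RMG1, used here, whereas its array methods name AMOC2. Those methods state oligo dT priming and Low Input Quick Amp labelling. Feature Extraction (version 10.7.3.1 in the file headers, 8.5.1.1 in the submitters' processing notes) read the scans, and the authors deposited spot intensities and local backgrounds without normalization. The log10 ratio that the authors deposited beside them had been background-subtracted and dye-normalized by the software, and a joined table repeats it. At 43117 spots compared, the joined table differed from the scanner files by 0.001 or more (log2) at 0 spots. Its 4 further signal columns were not used.

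From the intensities, ratios were computed with limma 3.58.1 in R 4.3.3 by normexp with an offset of 50 and loess within each array, control spots having no weight. Outlier spots (531 and 519 on the arrays, of these genes 2 and 4) were left out. Spots of a probe were averaged, and each gene was represented by its brightest probe well above background (over 50% of spots) in either population on both arrays. Symbols came from RefSeq for 25422 of 34127 probes and otherwise from the array design. The ratio steps were tested on simulated data, with a dye effect that did not vary with intensity and with dim probes left out of the scoring. Later steps used Python 3.11.15, numpy 2.4.6 and pandas 2.3.3. The number of arrays limits precision.

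The genes and lists were chosen with earlier results of these data known. All 10 genes are named, and from each list the 3 measured genes with the widest mean ratio among those of 1 sign on both arrays. Other probes of these are mentioned where they differ by more than 0.5. The 13 alternatives changed the background step, the normalization, the filters, the probe rule, or left out an array, and 1.5-fold was tried in place of 2-fold. The probe coordinates are those of the array files (hg19), and the promoters those of RefSeq (GRCh38.p14).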

Additional observations from a re-analysis of the deposited data

How the results depend on the processing

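The counts past 2-fold were 0 higher and 0 lower under each of the 13 alternatives, and 1 higher and 1 lower with 1.5-fold in place of 2-fold. The median of the 10 genes was 0.29 with the log ratio of the scanner software, and 0.29 with the joined table; leaving out an array gave 0.15 to 0.28, and the other alternatives 0.14 to 0.20. The number higher on both arrays was 3 (RELB, NFKBIE and TNFAIP3) with median centring in place of loess, 7 with the software's ratio and the joined table, 6 with the mean over probes, and 5 under the others that give such a count; median centring left all-gene medians of 0.56 and -0.44 on the arrays and 0.071 for their mean. Over the 10 genes and 13 alternatives, 5 of 130 values changed sign (NFKB1 under 2 alternatives, REL, RELA and BIRC3 under 1 each). Not all 130 could differ: the joined table repeats the software's ratio, and the filters on dim probes changed none of these genes. From 2 to 5 genes passed 0.52, the 95th percentile of the array difference under the reported processing. This cut-off was kept for every alternative. There were 2 without background correction, where RELB and NFKBIE did not pass, and 5 with the software's ratio, where TNFAIP3 did. With median centring 4 passed, but the arrays lay further apart there, so that count does not set the genes against the array gap of that setting. Past 1.5-fold, 1 to 3 were higher and 1 lower. Without a filter on dim probes the median of the ligands was 0.10, with all 10 listed, and that of the targets 0.13, with all 29. The causes were not tested. No paired analysis was possible because neither fraction has a second extract.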
